A study of Mus musculus with 12 samples.

Results

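The neurotrophin genes Bdnf and Ntf3, the receptor genes Ntrk2, Ntrk3 and Ngfr, and Sort1, which encodes a sorting receptor for their precursors, were followed across 4 groups of mouse hippocampus. These 6 genes were taken by symbol out of 35754 genes measured, and all 6 passed the filter on low counts. RNA came from male C57BL/6 mice aged 8 weeks, with 3 mice and so 3 libraries in each group. F0_Dep mice had depression induced by stress, and F0_Ctl were normal mice. F1_Dep mice were sons of stress-induced depressed males, and F1_Ctl mice were sons of normal males. The labels do not describe the stress procedure. They name no father or litter, and brothers within an F1 group are possible. Sequencing lane names stand in the labels of F1_Ctl alone, so sequencing and group cannot be told apart there.

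Neurotrophins are secreted growth factors that keep neurons alive and adjust synapses. Bdnf acts mainly through the receptor kinase TrkB, the product of Ntrk2, and neurotrophin-3, the product of Ntf3, mainly through TrkC, the product of Ntrk3. The uncut precursors bind p75NTR, the product of Ngfr, together with sortilin, the product of Sort1, and this pair can signal cell death or synapse weakening. In the hippocampus Bdnf is made by excitatory neurons, and Ntf3 chiefly by dentate granule cells and the CA2 field.

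The clearest pattern was in Ntf3, whose 3 F1_Dep libraries lay below all 9 other libraries, at 0.483 times the F1_Ctl level in the fit, without passing the adjusted threshold of 0.05. A placing of F1_Dep below all others was seen in 2.43% of all genes tested, and above all others in 1.87%. For F0_Dep these shares were 5.32% below and 5.99% above. In scaled counts, the Ntrk3 libraries of F1_Dep all lay below those of F0_Dep, groups between which 43.0% of all genes did not overlap. The Ntrk2, Ntrk3 and Sort1 libraries of F0_Dep all lay above those of F0_Ctl, where 27.4% of all genes did not overlap. In FPKM, a measure per unit length, Ntrk3 overlapped between these F0 groups. None of these differences in counts passed in edgeR either.

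edgeR's quasi-likelihood test with Benjamini-Hochberg adjustment called 0 of the 6 genes in every comparison. In F0_Dep against F0_Ctl 0.501% of 16153 genes were called, 3 of the 6 genes had an unadjusted p under 0.05, as had 19.7% of all genes, and 3 of the 6 did not overlap between groups, as 27.4% of all genes. In F1_Dep against F1_Ctl 0.167% were called, 2 of the 6 had an unadjusted p under 0.05, against 14.9% of all genes, and 2 did not overlap, against 19.0%. In F1_Dep against F0_Ctl 0.0% were called, 2 of the 6 had an unadjusted p under 0.05, against 12.9%, and 3 did not overlap, against 19.6%. In F1_Dep against F0_Dep 2.88% were called, 3 of the 6 had an unadjusted p under 0.05, against 22.3%, and 4 did not overlap, against 43.0%. In F1_Ctl against F0_Ctl 0.0% were called, 0 of the 6 had an unadjusted p under 0.05, against 5.93%, and 0 did not overlap, against 6.05%. The interaction, the F1 change minus the F0 change, called 0.0681% of genes, with 2 of the 6 at an unadjusted p under 0.05, against 13.4%. The test over 4 groups called 0.39%, with 3 of the 6 at an unadjusted p under 0.05, against 24.4%.

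Other tools called some of these 6 genes, and DESeq2 shares are over genes to which it gave an adjusted p. In F0_Dep against F0_Ctl DESeq2 called Ntrk2 (adjusted p = 0.0497) among 8.08% of all genes, gave Ngfr no adjusted p, and limma voom with quality weights called 0 of the 6 and 2.64% of all genes. In F1_Dep against F1_Ctl both called Ntf3 alone of the 6, DESeq2 (adjusted p = 0.000257) among 3.63% and voom (adjusted p = 0.0120) among 12.4% of all genes. In F1_Dep against F0_Ctl DESeq2 called Ntf3 (adjusted p = 0.0458) among 2.51%, and voom called none of the 6 and 0.0805% of all genes. In F1_Dep against F0_Dep DESeq2 called Ntf3 (adjusted p = 0.0104) and Ntrk3 (adjusted p = 0.00748) among 9.37%, and voom called Ntf3, Ntrk3 and Ngfr among 29.2%. In the interaction DESeq2 called Ntf3 (adjusted p = 0.0154) among 3.1%, and voom called none of the 6 and 3.29% of all genes. Over 4 groups DESeq2 called Ntf3, Ntrk2 and Ntrk3 among 14.6%, and voom called Ntf3 and Ntrk3 among 9.84%. In F1_Ctl against F0_Ctl both tools called 0.0% of all genes.

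Library totals of the expected counts lay between 18277208 and 23083678. A list of 6 neuronal genes (Slc17a7, Neurod6, Camk2a, Snap25, Syt1 and Rbfox3) was summed in CPM, counts scaled to library size. The sums were 10013 to 11001 in F0_Dep, 8765 to 9301 in F1_Dep, 8370 to 9337 in F0_Ctl and 8492 to 10335 in F1_Ctl. Libraries stood apart in other markers. The 14 choroid plexus genes summed to 3671 to 6341 CPM in F1_Dep, 6553 in F0_Ctl 3 and 12537 in F1_Ctl 3, and to 162 to 1024 in the other libraries. The 11 striatum genes summed to 1555 CPM in F1_Dep 1 and to 199 to 381 elsewhere. The 12 dentate granule cell genes summed to 242, 657 and 501 CPM in F1_Dep 1, 2 and 3, and to 749 to 1214 in the other 9 libraries. The mitochondrial pseudogene Gm28661 was counted at 4119 to 4664 CPM in F0_Dep, against 0 in every library outside it, and whether reads were assigned in another way there was not tested. In whole tissue, fewer cells of a type and less RNA per cell cannot be told apart.

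Promoter sequences of the ligands are shown because several starts feed one summed gene count, so the count cannot say which start was used. RefSeq (GRCm38.p6) gave 300-base windows for 7 Bdnf starts, 2 Ntf3 starts and 1 start each of Ntrk2 and Ngfr, and none were matched for Ntrk3 and Sort1. Of these, 3 are printed, the Bdnf window that holds a motif and both Ntf3 windows, each 5′ to 3′ on the gene's strand, with capitals for a motif found. The Bdnf window at chr2:109692186-109692485 (plus strand) holds TCACGTCA, a calcium- and cAMP-response type of element, 38 bases before the start. The Ntf3 window at chr6:126166695-126166994 (minus strand) holds CACGTG, an E-box, 231 bases before the start, and the second Ntf3 window, at chr6:126164911-126165210, holds none of the motifs searched.
Bdnf, window with a motif: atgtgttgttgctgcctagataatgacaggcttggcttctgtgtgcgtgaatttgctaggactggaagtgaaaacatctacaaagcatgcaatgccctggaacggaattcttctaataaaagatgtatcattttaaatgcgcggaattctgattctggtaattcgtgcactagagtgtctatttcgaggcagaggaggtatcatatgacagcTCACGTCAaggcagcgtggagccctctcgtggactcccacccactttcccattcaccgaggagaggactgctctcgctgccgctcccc
Ntf3 first start: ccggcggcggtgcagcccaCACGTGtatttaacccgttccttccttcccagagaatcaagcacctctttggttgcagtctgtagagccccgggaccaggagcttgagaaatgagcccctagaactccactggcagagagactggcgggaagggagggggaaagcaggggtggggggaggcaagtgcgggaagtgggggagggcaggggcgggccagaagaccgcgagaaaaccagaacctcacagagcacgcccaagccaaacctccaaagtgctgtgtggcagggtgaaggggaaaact
Ntf3 second start: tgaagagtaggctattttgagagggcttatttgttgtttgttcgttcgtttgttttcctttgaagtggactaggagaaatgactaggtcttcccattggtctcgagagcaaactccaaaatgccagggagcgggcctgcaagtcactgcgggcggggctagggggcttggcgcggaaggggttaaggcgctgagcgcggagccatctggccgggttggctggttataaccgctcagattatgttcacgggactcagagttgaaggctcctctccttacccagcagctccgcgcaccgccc
The motifs searched on both strands were TGACGTCA, TCACGTCA, CACGTG and GCGGGGGCG. They were present in 1.79%, 0.441%, 7.15% and 2.91% of all 32851 promoter windows. Of the 11 windows of the 4 genes, 1 held TCACGTCA and 1 held CACGTG, and these matches are letters in a window rather than shown binding sites.

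Per unit length, the order of the levels was Sort1, Ntrk2, Ntrk3, Bdnf, Ntf3 and Ngfr. In FPKM, which was used here for the 9 libraries outside F1_Ctl, these averaged 112.8, 65.6, 34.1, 13.8, 4.90 and 0.304. The ranges over libraries did not overlap between neighbours in this order, with Sort1 at 88.6 to 134 FPKM, Ntrk2 at 48.7 to 75.7, Ntrk3 at 23.98 to 40.4, Bdnf at 9.05 to 18.8, Ntf3 at 3.32 to 6.99 and Ngfr at 0.0587 to 0.479.

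**Figure D1:**
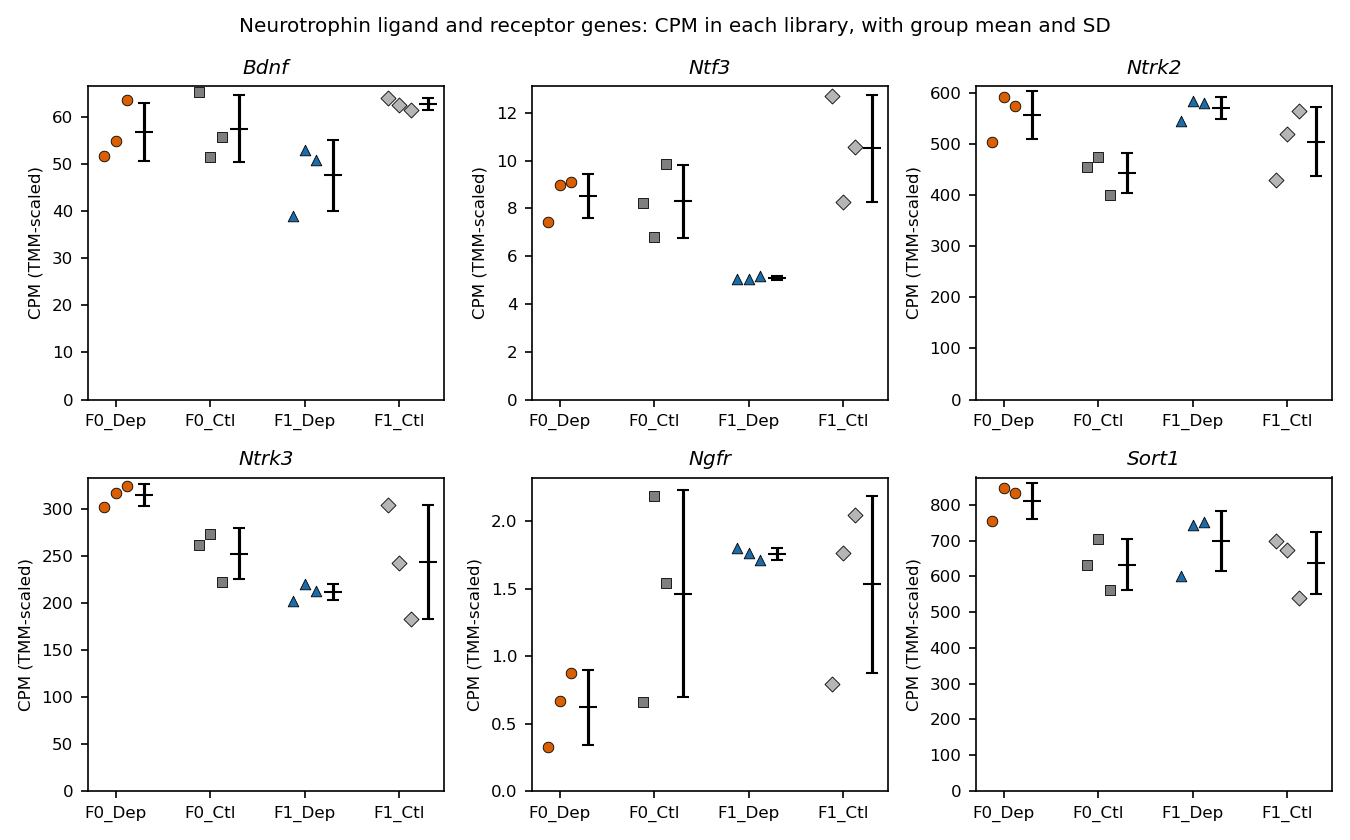
CPM of the 6 genes in each of 12 libraries, with group mean and SD beside the 3 points (y axis from 0). The 3 F1_Dep points of Ntf3 lie at 5.04 to 5.18 CPM, under every other library, while Ngfr stays under 2.19 CPM throughout.

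Bdnf encodes brain-derived neurotrophic factor and lies at chr2:109674700-109727007 (GRCm38, plus strand), where the annotation also has an antisense gene. It had 51.7, 54.9 and 63.5 CPM in F0_Dep, against 65.2, 51.4 and 55.7 CPM in F0_Ctl. The F0 groups overlapped, and the log2 difference was -0.02 ± 0.13 (SE; edgeR quasi-likelihood, Benjamini-Hochberg adjusted p = 0.951). It had 39.0, 52.9 and 50.7 CPM in F1_Dep, against 63.9, 62.5 and 61.4 CPM in F1_Ctl. All F1_Dep libraries lay below all F1_Ctl libraries, with F1_Dep 1 the lowest of the 12. The log2 difference was -0.40 ± 0.13 and missed the threshold (edgeR, adjusted p = 0.186).

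The FPKM of Bdnf gave another picture in F0, at 14.6, 15.8 and 18.8 in F0_Dep and 13.2, 12.7 and 12.9 in F0_Ctl. These groups did not overlap, with a log2(FPKM + 1) difference of 0.32 ± 0.15 (limma, adjusted p = 0.162). The ratio of FPKM to CPM of Bdnf was 0.282 to 0.296 in F0_Dep, 0.232 to 0.263 in F1_Dep and 0.202 to 0.247 in F0_Ctl. Its shift between F0_Dep and F0_Ctl, 0.35 on the log2 scale, was above that of 93.5% of 12617 genes. The F0 difference of Bdnf was thus -0.02 ± 0.13 in counts, without a clear sign, and 0.32 ± 0.15 in FPKM, and neither passed.

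**Figure D2:**
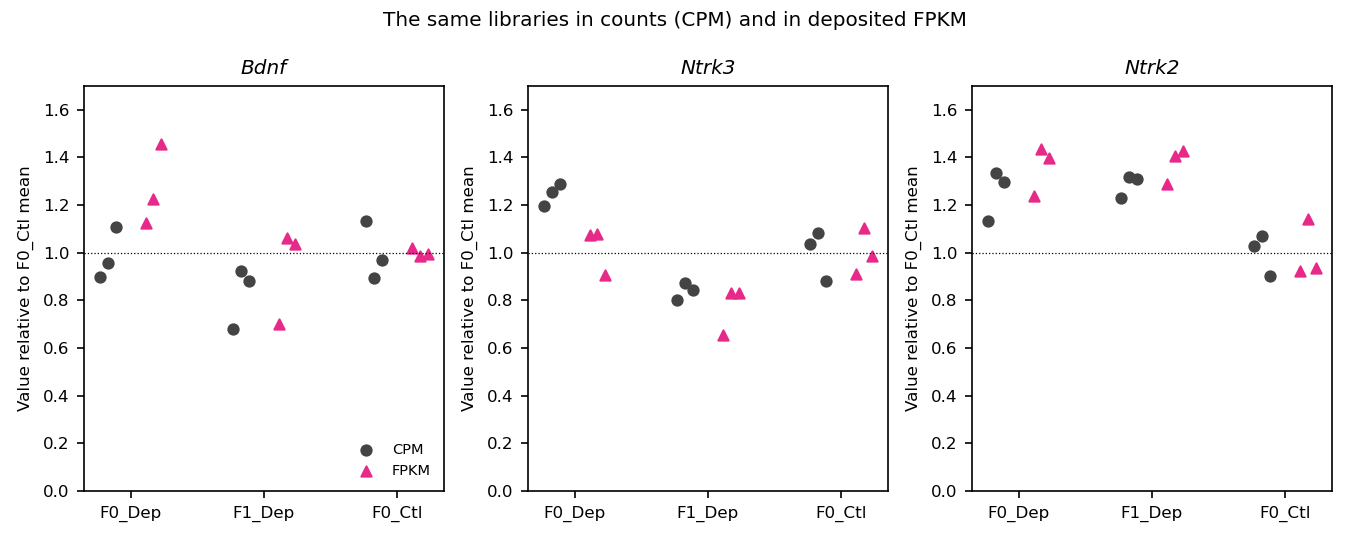
Bdnf, Ntrk3 and Ntrk2 in the same 9 libraries, as CPM (circles) and FPKM (triangles), each relative to its own F0_Ctl mean (y axis from 0; FPKM of F1_Ctl was not analysed here). For Bdnf the F0_Dep triangles lie above the circles, for Ntrk3 below them, and for Ntrk2 both measures lie above 1 in F0_Dep and F1_Dep.

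Ntf3 encodes neurotrophin-3 and lies at chr6:126101412-126166910 (minus strand), with no overlapping gene annotated. It had 5.04, 5.04 and 5.18 CPM in F1_Dep (98, 117 and 115 counts), against 12.7, 8.25 and 10.6 CPM in F1_Ctl (289, 150 and 212 counts). The F1 groups did not overlap, and the highest F1_Dep library lay below the lowest F1_Ctl library. The log2 difference was -1.05 ± 0.19, a fold of 0.483 (edgeR, adjusted p = 0.0595), which did not pass 0.05. It passed without F1_Ctl 1 and, in a fit chosen after seeing the data, without F0_Ctl 3, F1_Ctl 3 and F1_Dep 1 together (-1.04, adjusted p = 0.0474), and over 15 alternatives the adjusted p ran from 0.000257 to 0.185 and the difference from -1.16 to -0.84. In F0 it had 7.44, 8.98 and 9.11 CPM in F0_Dep and 8.25, 6.80 and 9.85 CPM in F0_Ctl, and these overlapped with a log2 difference of 0.04 ± 0.18 (edgeR, adjusted p = 0.934).

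The F1 change of Ntf3 minus its F0 change was -1.09 ± 0.26 (edgeR interaction, adjusted p = 0.123). F1_Dep was also below F0_Dep, by a log2 difference of -0.74 ± 0.19 (adjusted p = 0.0531), and below F0_Ctl, by -0.71 ± 0.19 (adjusted p = 0.166, edgeR). A placing of all 3 F1_Dep libraries below the other 9 was seen in 2.43% of all genes tested, and above the other 9 in 1.87%. In FPKM, Ntf3 was 3.39, 3.32 and 3.51 in F1_Dep, 4.83, 6.30 and 5.77 in F0_Dep and 5.18, 4.78 and 6.99 in F0_Ctl, and the F1_Dep against F0_Dep difference of -0.58 ± 0.13 on log2(FPKM + 1) passed (limma, adjusted p = 0.0317), as did 10.7% of genes. That call was lost when any 1 of these 6 libraries was left out. F1_Dep against F0_Ctl had 0.159% of genes called in FPKM and none of the 5 members tested there, since Ngfr stayed under the FPKM filter of 1.

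Within F1_Dep, Ntf3 stayed at 5.04 to 5.18 CPM. Dentate granule cell markers varied there and were lower in each F1_Dep library than in every library of the other groups. Their median log2 CPM, centred on all libraries, was -1.92, -0.25 and -0.64 in F1_Dep 1, 2 and 3, and -0.04 to 0.60 in the others, and their part in the result was not tested.

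**Figure D3:**
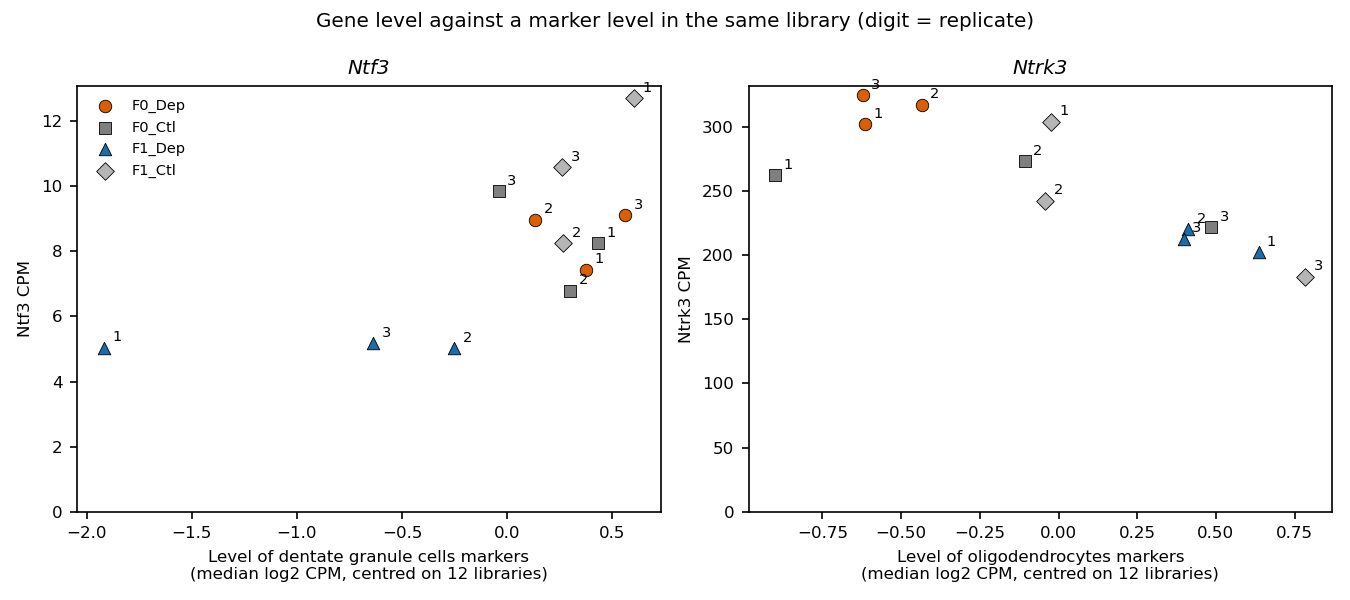
CPM of Ntf3 against the dentate granule cell marker level, and of Ntrk3 against the oligodendrocyte marker level, in 12 libraries (digits are replicate numbers). The F1_Dep libraries have Ntf3 between 5.04 and 5.18 CPM at marker levels from -1.92 to -0.25, and Ntrk3 is lowest in F1_Ctl 3, which has the highest oligodendrocyte level, 0.78.

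Ntrk2 encodes TrkB and lies at chr13:58806569-59133970 (plus strand), and its count sums the full-length kinase form and the shortened forms. It had 503, 592 and 574 CPM in F0_Dep, against 455, 475 and 399 CPM in F0_Ctl. The F0 groups did not overlap, with a log2 difference of 0.33 ± 0.11 (edgeR, adjusted p = 0.153). It had 545, 583 and 581 CPM in F1_Dep and 430, 520 and 564 CPM in F1_Ctl, which overlapped, with 0.18 ± 0.11 (adjusted p = 0.504), or 0.073 without F1_Ctl 1. F1_Dep lay above F0_Ctl in all libraries (0.36 ± 0.11, edgeR, adjusted p = 0.217) and overlapped F0_Dep. In FPKM, Ntrk2 was 65.4, 75.7 and 73.7 in F0_Dep and 48.7, 60.3 and 49.3 in F0_Ctl. That difference of 0.44 ± 0.11 passed (limma, adjusted p = 0.0282), where 19.2% of genes did so, and was lost without F0_Ctl 1, F0_Ctl 3, F0_Dep 2 or F0_Dep 3.

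Ntrk3 encodes TrkC and lies at chr7:78175959-78738012 (minus strand). It had 302, 317 and 325 CPM in F0_Dep, against 262, 273 and 222 CPM in F0_Ctl, without overlap (0.32 ± 0.15, edgeR, adjusted p = 0.265). It had 203, 220 and 213 CPM in F1_Dep and 304, 243 and 183 CPM in F1_Ctl, which overlapped (-0.20 ± 0.15, edgeR, adjusted p = 0.574). That difference was -0.00754 without F1_Ctl 1 and -0.37 without F1_Ctl 3. Between F1_Dep and F0_Dep it differed by -0.57 ± 0.15 (edgeR, adjusted p = 0.0579), with no overlap, and leaving out any single one of these 6 libraries gave adjusted p from 0.120 to 0.198. Without F0_Ctl 3, F1_Ctl 3 and F1_Dep 1 together, chosen after seeing the data, it was -0.54 (edgeR, adjusted p = 0.0135), and in FPKM it was -0.39 ± 0.13 (limma, adjusted p = 0.0714). Its FPKM of 39.4, 39.5 and 33.3 in F0_Dep overlapped those of 33.5, 40.4 and 36.2 in F0_Ctl, with a difference of 0.03 ± 0.13 (limma, adjusted p = 0.891).

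The ratio of Ntrk3 to Ntrk2 CPM was 0.367 to 0.377 in F1_Dep, 0.325 to 0.708 in F1_Ctl, 0.536 to 0.600 in F0_Dep and 0.556 to 0.576 in F0_Ctl. The F1_Dep libraries thus lay below both F0 groups and within the F1_Ctl range. The 9 oligodendrocyte genes tested, out of 10 listed, summed to 6121 to 7305 CPM in F1_Dep, 4420 to 7481 in F1_Ctl, 2936 to 3257 in F0_Dep and 2217 to 6270 in F0_Ctl. Ntrk3 was lowest in F1_Ctl 3, which had the highest oligodendrocyte sum and also the highest choroid plexus sum. The part of these markers in the Ntrk3 values was not tested.

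Ngfr encodes p75NTR, lies at chr11:95568818-95587735 (minus strand) and was near the lower limit of the data, at 6 to 46 counts a library. It had 0.326, 0.665 and 0.873 CPM in F0_Dep, against 0.662, 2.19 and 1.54 CPM in F0_Ctl. These groups overlapped, with a log2 difference of -1.23 ± 0.50 (edgeR, adjusted p = 0.206). It had 1.80, 1.77 and 1.71 CPM in F1_Dep and 0.791, 1.76 and 2.05 CPM in F1_Ctl, with a difference of 0.20 ± 0.46 (adjusted p = 0.890). Between F1_Dep and F0_Dep the groups did not overlap (1.49 ± 0.50, edgeR, adjusted p = 0.111). Cholinergic neurons of the basal forebrain, which carry much p75NTR, were checked with 8 genes, of which 3 passed the filter on low counts. The 8 summed to 4.05 to 7.31 CPM in F0_Dep, 5.34 to 17.3 in F1_Dep, 3.41 to 12.5 in F0_Ctl and 5.23 to 9.36 in F1_Ctl. Their part in the Ngfr values was not tested.

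Sort1 encodes sortilin and lies at chr3:108284082-108361511 (plus strand). It had 755, 846 and 832 CPM in F0_Dep, against 632, 704 and 561 CPM in F0_Ctl. These did not overlap, with a log2 difference of 0.36 ± 0.13 (edgeR, adjusted p = 0.166), and FPKM gave 0.39 ± 0.13 (limma, adjusted p = 0.0583). In F1_Dep it had 601, 744 and 751 CPM and in F1_Ctl 700, 673 and 538 CPM, which overlapped (0.13 ± 0.13, edgeR, adjusted p = 0.681). With 1 of these libraries left out that difference ran from 0.020, without F1_Ctl 3, to 0.23, without F1_Dep 1.

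**Figure D4:**
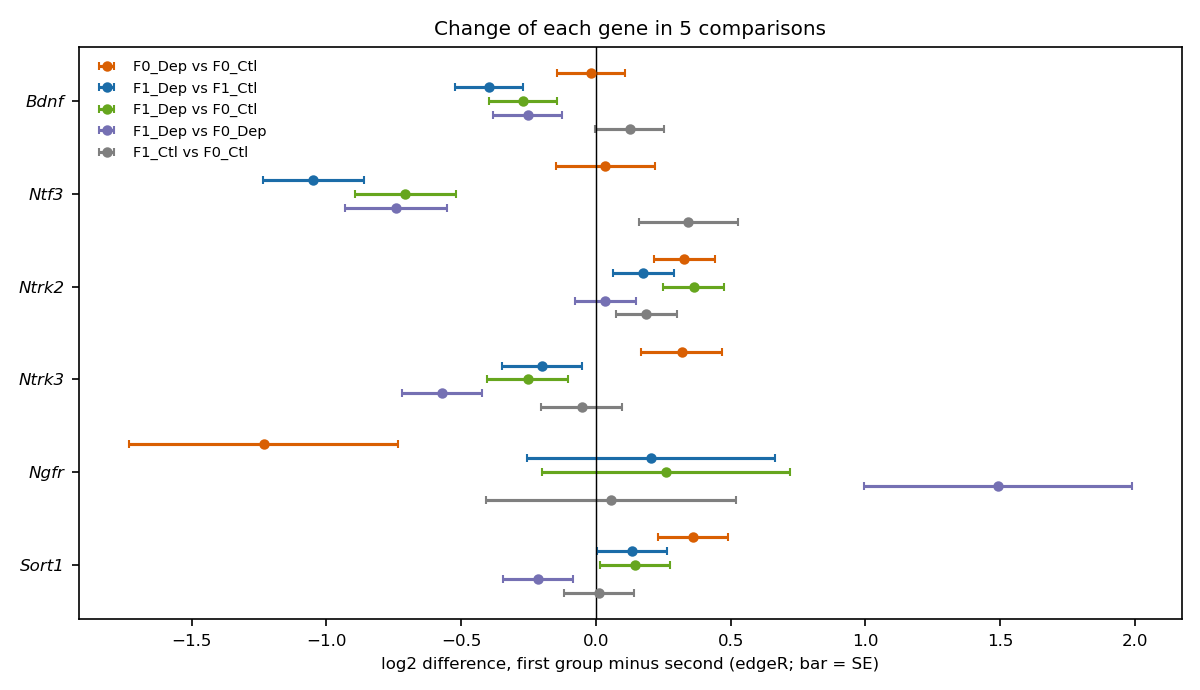
Log2 difference of the 6 genes, first group minus second, with SE, in 5 comparisons (edgeR). Ntf3 lies left of 0 wherever F1_Dep is compared, Ntrk2, Ntrk3 and Sort1 lie right of 0 for F0_Dep against F0_Ctl, and Ngfr has the longest bars.

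In F1_Ctl against F0_Ctl the differences of the 6 genes ran from -0.05 to 0.34 on the log2 scale, and all overlapped.

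The wider pathway was read from 5 lists of 130 genes, of which 124 were tested. In F0_Dep against F0_Ctl 1 of 124 rose and 0 fell by edgeR, where 0.501% of all genes were called, DESeq2 called 20 (8.08% of all genes) and voom 8 (2.64%), and 37 of 124 had an unadjusted p under 0.05, against 19.7% of all genes. The median log2 difference was 0.04, against -0.03 over all genes. The gene that rose was Cbl, which encodes a ubiquitin ligase that marks active receptors for breakdown. It had 126, 156 and 155 CPM in F0_Dep, against 81.5, 102.3 and 77.0 CPM in F0_Ctl (0.75 ± 0.14, edgeR, adjusted p = 0.0482), without overlap, and the call was lost in 5 of 6 fits with 1 of these libraries left out, all but that without F0_Ctl 2. In F1_Dep against F1_Ctl edgeR called 0 of 124, with 18 at an unadjusted p under 0.05 (14.9% of all genes), DESeq2 called 7 (3.63%) and voom 17 (12.4%). In F1_Dep against F0_Ctl edgeR called 0, with 22 at an unadjusted p under 0.05 (12.9% of all genes), DESeq2 called 6 (2.51%) and voom 0 (0.0805%). In F1_Ctl against F0_Ctl edgeR, DESeq2 and voom called 0, with 5 at an unadjusted p under 0.05 (5.93% of all genes). In the interaction edgeR called 0, with 28 at an unadjusted p under 0.05 (13.4% of all genes), DESeq2 called 6 (3.1%) and voom 5 (3.29%).

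By list, the medians in F0_Dep against F0_Ctl were 0.14 for 14 ligand and processing genes, 0.19 for 16 receptors and co-receptors, 0.11 for 40 Trk adaptors and kinases, -0.07 for 29 p75 adaptors and 0.01 for 25 genes of Bdnf transcription and transport. In F1_Dep against F1_Ctl they were 0.09, 0.17, 0.05, -0.00318 and -0.03 in the same order of lists, against -0.02 over all genes.

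In F1_Dep against F0_Dep 4 of 124 were higher and 5 lower by edgeR, where 2.88% of all genes were called, with a median of -0.03 against 0.01 over all genes. DESeq2 called 24 of 124 (9.37% of all genes) and voom 48 (29.2%), and 42 had an unadjusted p under 0.05, against 22.3% of all genes. Gab1, a docking protein downstream of growth factor receptors, had 67.1, 68.1 and 62.2 CPM in F1_Dep, against 30.7, 34.7 and 35.1 in F0_Dep (0.97 ± 0.23, edgeR, adjusted p = 0.0463). Sorcs1, a sortilin relative, had 29.1, 18.5 and 19.0 CPM in F1_Dep, against 9.01, 9.31 and 8.67 in F0_Dep (1.30 ± 0.29, adjusted p = 0.0401). Omg, a myelin glycoprotein gene, had 127, 130 and 125 CPM in F1_Dep, against 91.6, 91.9 and 91.6 in F0_Dep (0.47 ± 0.11, adjusted p = 0.0492). Unlike Gab1, Sorcs1 and Adora2a, Omg did not have its highest group mean in F1_Dep. Its means were 133.1 CPM in F1_Ctl and 132.6 in F0_Ctl. Adora2a, whose adenosine receptor can transactivate Trk receptors and which also stands in the striatum list, had 54.6, 7.10 and 3.87 CPM in F1_Dep, against 1.36, 1.22 and 1.15 in F0_Dep (4.13 ± 0.92, adjusted p = 0.0404). Its highest value was in F1_Dep 1, and without that library the difference was 2.14 and did not pass, although it passed without F0_Ctl 3 and F1_Ctl 3 as well (2.14, adjusted p = 0.0114).

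The 5 genes lower in F1_Dep than in F0_Dep were Jun, Cblb, Crtc1, Hap1 and Nfat5. Jun, an AP-1 transcription factor, had 36.7, 76.5 and 50.3 CPM in F1_Dep, against 119.9, 115 and 132 in F0_Dep (-1.16 ± 0.22, edgeR, adjusted p = 0.0288). Cblb, a relative of Cbl, differed by -0.80 ± 0.19 (adjusted p = 0.0467). Crtc1, a CREB coactivator that acts on Bdnf transcription, had 209.8, 284 and 253 CPM in F1_Dep, against 374, 359 and 362 in F0_Dep (-0.55 ± 0.13, adjusted p = 0.0418). Hap1, which binds huntingtin in Bdnf transport, differed by -0.59 ± 0.13 (adjusted p = 0.0398) and Nfat5 by -0.48 ± 0.10 (edgeR, adjusted p = 0.0378). All 5 had their lowest group mean in F1_Dep. That of Nfat5, 130.7 CPM, lay near 133.7 in F1_Ctl and 141.4 in F0_Ctl, against 182.6 in F0_Dep. In the same order of groups, Crtc1 averaged 248.8, 289.8, 282.6 and 364.8 CPM, and Cblb 36.3, 51.1, 47.5 and 63.4. Jun averaged 54.5, 102.1, 88.0 and 122.1 CPM, and Hap1 55.9, 75.3, 76.0 and 83.9. For Crtc1 and Cblb, F1_Dep overlapped both control groups. None of the 5 passed in edgeR against either control group. Leaving out any single library of F1_Dep or F0_Dep lost the calls of Cblb, Crtc1, Gab1, Nfat5, Omg and Sorcs1, and 5 of 6 such omissions lost those of Adora2a, Hap1 and Jun. In FPKM, where 10.7% of genes passed (limma), Cblb, Gab1, Hap1, Jun and Nfat5 passed in this comparison. Crtc1 (adjusted p = 0.0913), Adora2a (0.073), Omg (0.0665) and Sorcs1 (0.051) did not (limma). Cbl passed in FPKM (-0.61, limma, adjusted p = 0.0293) but not in counts (-0.58, edgeR, adjusted p = 0.0512).

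Of the other pathway genes followed, Plat, whose protease cuts the Bdnf precursor through plasmin, had a log2 difference of 0.46 ± 0.14 in F0_Dep against F0_Ctl (edgeR, adjusted p = 0.121). Creb1 differed by 0.27 ± 0.11 (adjusted p = 0.210) and the convertase gene Furin by 0.22 ± 0.13 (edgeR, adjusted p = 0.367).

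**Figure D5:**
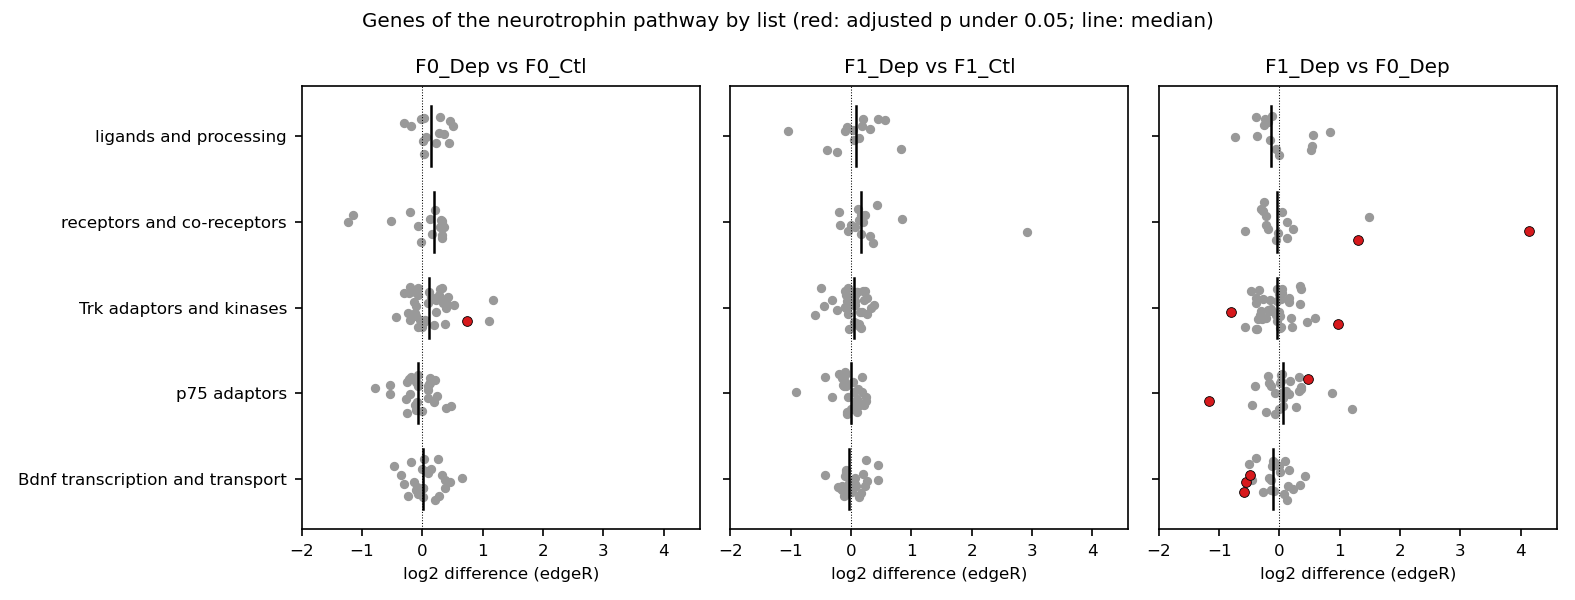
Log2 difference of each tested gene of the 5 pathway lists in 3 comparisons (edgeR), with red for an adjusted p under 0.05 and a line at each list's median. The called genes number 1, 0 and 9 in F0_Dep vs F0_Ctl, F1_Dep vs F1_Ctl and F1_Dep vs F0_Dep, and Adora2a is the point at 4.13.

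The genes most like each member over the 12 libraries, by Pearson's r of log2 CPM among 11737 or 11738 genes, are a description, since libraries share group, depth and tissue makeup. Stxbp5 (0.98) and Celf2 (0.98) lay closest to Ntrk3, Elfn2 (0.97) and Mmp24 (0.97) to Sort1, and Rwdd3 (0.94) and Nsun3 (0.94) to Ntf3. Sec24d (0.93) lay closest to Bdnf, Fam91a1 (0.93) to Ntrk2 and AI987944 (0.94) to Ngfr. Among the members, r was 0.74 between Bdnf and Ntf3, 0.73 between Ntrk3 and Sort1 and -0.74 between Ntrk3 and Ngfr.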

How the data were processed

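Hippocampal mRNA of 12 libraries was made with a stranded kit, per the labels' protocols. The authors deposited expected counts (estimated counts, 48.1% of the non-zero ones not whole) for 35812 gene IDs, and FPKM for the 9 libraries outside F1_Ctl. HISAT2, Cufflinks 2.2.1 and mm10 are named without roles, per the submitters' processing notes, and the sources used here do not give the counting tool or its use of strand. Symbols were matched by gene ID (35202 matched, 610 did not, holding 0.579% of counts), and 58 IDs were added to another ID with their symbol. The 6 genes lie on GRCm38 (GENCODE M21), and antisense or overlapping genes of that annotation were not analysed here. Counts were rounded and tested with edgeR 4.0.16 (R 4.3.3), TMM scaling, filterByExpr, 16153 genes, group as the only term, all 4 groups in one fit. Calls used an adjusted p under 0.05. SEs were derived from each fold change and F statistic. FPKM was tested with limma 3.58.1 on log2(FPKM + 1) for 13814 genes with FPKM of at least 1 in 3 libraries, which understates changes of low genes. DESeq2 1.42.0 and limma voom with quality weights were alternatives. In a simulation, all 12 libraries were drawn from a common mean for each gene, and some genes were changed in F0_Dep alone. Each gene was drawn on its own, so shifts shared by many genes of a library were absent. In F0_Dep against F0_Ctl, 10.4% of genes given a log2 change of 0.5 in size were recovered. The share was 43.3% at a change of 1 and 87.9% at 2, and 4 of 98 calls were false. Most changes of 0.5 or 1 were thus missed there, so an uncalled gene may still differ by such amounts. Named genes were the 6 members, 18 fixed pathway genes, any of the 5 pathway lists past 0.05, and the 3 nearest by correlation with a mean of at least 5 CPM. Some of these are not reported here. The members and lists were chosen with earlier results of these data known. Nothing says which mice came from separate litters, so p-values measure the spread between these mice.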

Additional observations from a re-analysis of the deposited data

How the results depend on the processing

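Of 585 values of the 6 genes under alternatives, 538 kept direction and side of the threshold, 20 newly passed, none lost a call and 27 changed direction, all for differences of 0.26 or less in size. Counts of called genes out of 6 (5 in FPKM, where Ngfr failed the filter) differed as follows. In F0_Dep against F0_Ctl, DESeq2 and limma on FPKM gave 1 each, the replicate block on FPKM gave 2, and FPKM with 1 library left out gave 0 to 2. In F1_Dep against F1_Ctl, a threshold of 0.1, DESeq2, no filter, voom and, chosen after seeing the data, the omission of F0_Ctl 3, F1_Ctl 3 and F1_Dep 1 together gave 1 each, and 1 library left out gave 0 to 1, the call coming without F1_Ctl 1. In F1_Dep against F0_Ctl, DESeq2 gave 1, and FPKM with 1 library left out gave 0 to 1. In F1_Dep against F0_Dep, the threshold of 0.1 and DESeq2 gave 2, no filter, the joint omission and FPKM gave 1, voom and only the groups compared gave 3, and FPKM gave 0 without a filter and 0 with any library left out. The interaction gave 1 by DESeq2. Over 4 groups, a threshold of 0.1, no filter and the joint omission gave 1, voom gave 2, DESeq2 gave 3, and 1 library left out gave 0 to 2.

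Directions turned as follows, in log2. Bdnf in F0 was 0.030 by voom, 0.32 by FPKM and -0.11 to 0.10 with 1 library left out. Ntf3 in F0 was -0.000801 without TMM and -0.090 to 0.18 with 1 left out. Ntrk2 was -0.040 to 0.083 in F1_Dep against F0_Dep with 1 left out, and 0.037 in the interaction under the joint omission. In F1_Ctl against F0_Ctl, Ntrk3 was 0.032 under the joint omission and -0.25 to 0.13 with 1 left out, Ngfr -0.019 without TMM, -0.18 under the joint omission and -0.28 to 0.46 with 1 left out, and Sort1 -0.044 without TMM, -0.00046 with the 1 CPM filter, -0.00049 with only the groups compared and -0.068 to 0.13 with 1 left out. Ngfr was -0.12 to 0.47 in F1_Dep against F1_Ctl and -0.076 to 0.66 against F0_Ctl with 1 left out. The cause was not tested. With replicate number as a block, the count fits called 0 of 6 genes in every comparison, kept the calls of Gab1 and Jun and lost those of the other pathway genes named. Replicate numbers did not pair the samples (18 same-number pairs, r from -0.17 to 0.50; 3 of 12 libraries best matched their own number). At 6 to 46 counts, Ngfr has the widest errors, and 3 mice a group limit all results.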
